A study of Mus musculus with 4 samples.

Results

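The genes described here encode the hormones and chromogranins of enteroendocrine cells, the scattered secretory cells of the gut epithelium, and 10 genes were chosen by name out of 20637 named genes on the array. They were the chromogranin and secretogranin genes Chga, Chgb and Scg3, the hormone genes Pyy, Gcg, Insl5, Sst and Cck, the serotonin synthesis gene Tph1 and the transcription factor gene Neurod1. They were matched by RefSeq accession to 11 probes, and the choice was made because Pyy and Chga had been found higher on 1 array, that of germ-free mice labelled as deficient for CD300a, than on the array of germ-free wild-type mice. The difference between those 2 arrays is therefore given as a description.

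The study measured dendritic cells, antigen-presenting immune cells, sorted by flow cytometry from the lamina propria of the colon, the connective tissue under the epithelium, of C57BL/6J mice. The groups were CD300a-deficient (KO) and wild-type (WT) mice raised germ-free (GF), labelled male, and KO and WT mice raised specific pathogen-free (SPF), labelled female and titled naïve. CD300a is a receptor that inhibits myeloid cells on contact with phosphatidylserine. Each group had 1 array, cells came from 5 mice in each condition, and the labels used here give no ages and do not say how the KO allele was made. GF arrays were on 1 slide and SPF arrays on another, each slide scanned separately, so the effects of housing, slide, scan and labelled sex cannot be told apart.

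Enteroendocrine cells arise in the crypts under basic helix-loop-helix factors such as NEUROD1. They store hormones with granins in dense-core granules and release them when nutrients, bile acids or microbial products reach the lumen. In the colon the main types are L cells, which make peptide YY, glucagon-like peptides from Gcg and, in the distal part, INSL5, enterochromaffin cells, which make serotonin through TPH1, and D cells, which make somatostatin. None of these products is a defining product of dendritic cells.

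The arrays as a whole went partly against their labels. Cd300a, the targeted gene, had levels of 8.05 on the KO GF array, 7.60 on the WT GF array, 7.91 on the KO SPF array and 7.88 on the WT SPF array, so its 1 probe did not separate the genotypes, and the sources used here do not place that probe inside or outside the deleted part. Xist, the RNA that silences an X chromosome in females, had a level of 3.62 on the KO GF array although those mice are labelled male, and on the WT GF array it was not well above background. The Y-linked Ddx3y was above background on both GF arrays (0.59 in KO, 2.07 in WT) and not on the SPF arrays, but the Y-linked Eif2s3y was also above background on the KO SPF array (-2.56), labelled female. The arrays are called KO-labelled for these reasons. With 1 array per group the results that rest on the KO GF array cannot be given without it. The SPF pair and the comparison of housings in WT cells do not use it. Of the 17 markers of dendritic cells on the array, 16 were well above background on each GF array and 17 on each SPF array, with H2-Ab1 between 7.24 and 8.47 on the 4 arrays. Of all named genes, 72.95% were above background on the KO GF array, 71.97% on WT GF, 66.86% on KO SPF and 69.89% on WT SPF.

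All levels are log2 of the processed signal relative to the 75th percentile of the probes on the same array, which was 206.3 signal units on the KO GF array, 190.2 on the WT GF array, 157.5 on the KO SPF array and 165.5 on the WT SPF array. A difference of 1 is 2-fold. A probe counted as above background when at least as many of its spots were flagged well above background by the scanner software as were not. The lowest level of any probe so flagged, the floor of the array, was -3.95 on KO GF, -3.96 on WT GF, -3.86 on KO SPF and -4.14 on WT SPF. Where a probe was above background on 1 of 2 arrays, a fold is given as a bound, the bright level against the floor or the dim probe's own level, whichever was higher. Counts of genes past 2-fold and list medians use the measured difference, also for such genes. No difference between arrays has a replicate check. The errors given are the SD between spots of 1 probe, or the scanner's own error for a probe with 1 spot, and cover measurement within an array only. In bulk samples such as these, fewer cells of a type and less RNA per cell cannot be told apart.

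The promoters of the genes that the results turn on are shown because their levels differed unequally between arrays. Each is the stretch of 120 bases just before the start site in RefSeq (GRCm38.p6, 5′ to 3′ on the strand of the gene), in lower case, with capitals for 3 motifs searched on both strands: the cAMP response element TGACGTCA, its variant TGACGTAA, and the E-box CAGATG, a sequence of the kind that helix-loop-helix factors bind.
Chga, chr12:102554821-102554940, plus strand: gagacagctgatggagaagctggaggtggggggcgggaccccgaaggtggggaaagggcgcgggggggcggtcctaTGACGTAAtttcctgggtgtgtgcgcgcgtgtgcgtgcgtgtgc
Chgb, chr2:132781522-132781641, plus strand: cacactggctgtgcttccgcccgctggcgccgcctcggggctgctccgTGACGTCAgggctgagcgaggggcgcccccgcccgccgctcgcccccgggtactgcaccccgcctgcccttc
Sst, chr16:23890845-23890964, minus strand: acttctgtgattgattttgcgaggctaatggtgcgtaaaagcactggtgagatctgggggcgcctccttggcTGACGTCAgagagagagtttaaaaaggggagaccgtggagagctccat
Gcg, chr2:62483654-62483773, minus strand: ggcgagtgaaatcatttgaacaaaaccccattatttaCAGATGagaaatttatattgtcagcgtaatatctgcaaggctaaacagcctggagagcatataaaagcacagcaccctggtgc
Cck, chr9:121495695-121495814, minus strand: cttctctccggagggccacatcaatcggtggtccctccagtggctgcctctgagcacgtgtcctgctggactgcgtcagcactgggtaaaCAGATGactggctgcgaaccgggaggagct
Pyy, chr11:102107833-102107952, minus strand (1 of its 2 start sites): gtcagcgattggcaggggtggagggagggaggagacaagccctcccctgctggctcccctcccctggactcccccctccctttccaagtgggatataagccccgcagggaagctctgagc

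All 10 genes had a promoter entry, 13 in all. In the 250 bases before the start, TGACGTCA was in 2 of the genes, Chgb (72 to 65 bases before the start) and Sst (48 to 41), against 1.55% of 32851 promoters of all genes. TGACGTAA was in Chga alone (44 to 37 bases before the start), against 0.447% of all promoters. CAGATG was in 3 of the genes, in Gcg at 83 to 78 and at 139 to 134 bases, in Cck at 30 to 25 and, before 1 of its start sites, in Insl5 at 178 to 173, against 14.4% of all promoters. None of the 3 motifs overlapped another in these promoters. A match describes the letters only.

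The first question was where the genes were measured at all. All 10 were above background on the KO GF array, 7 on the WT GF array, 6 on the KO SPF array and 4 on the WT SPF array. Of all named genes, 72.95%, 71.97%, 66.86% and 69.89% were above background on these arrays, in that order. Pyy and Insl5 were the 2 above background on every array. The KO GF array had the highest level for 9 of the 10 genes, all but Cck. The lowest level was on the WT SPF array for Chga, Chgb, Scg3, Tph1 and Neurod1, on the WT GF array for Pyy, Gcg, Insl5 and Cck, and on the KO SPF array for Sst. By mean level over the arrays, 8 of the genes lay below the median of all named genes, and Pyy and Insl5 above it.

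**Figure D1:**
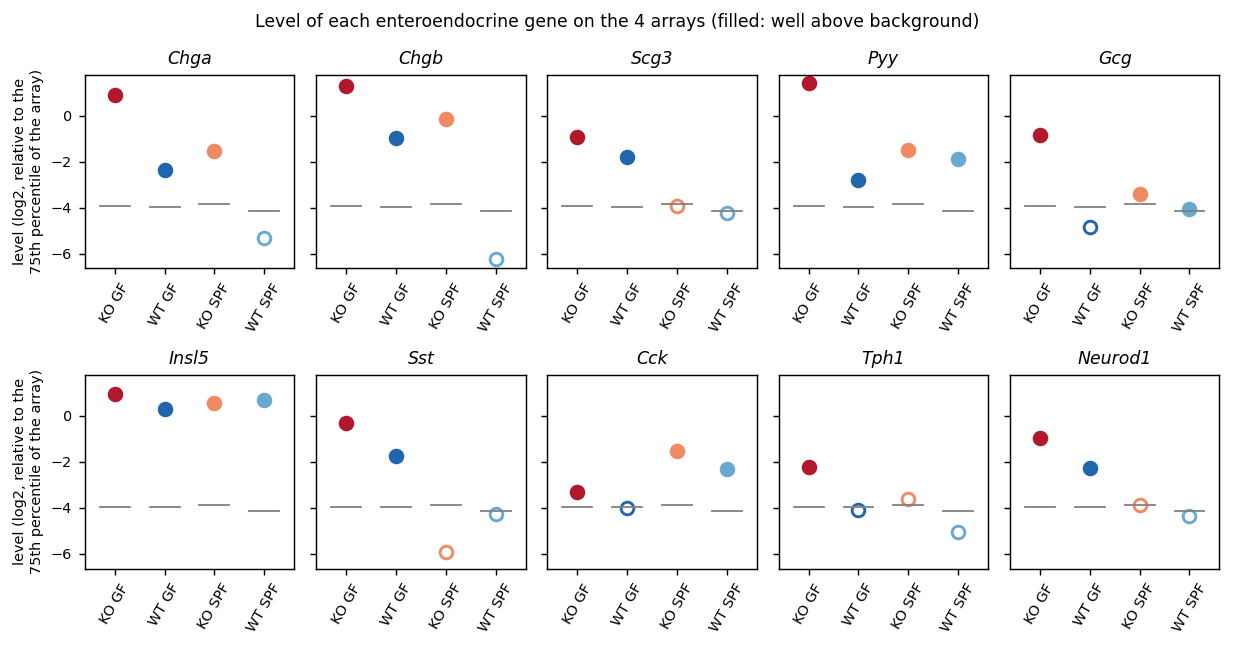
Level of each gene (y axis, log2 relative to the 75th percentile of the array) on the KO GF, WT GF, KO SPF and WT SPF arrays (x axis), 1 point per array for the probe that stands for the gene; filled points are well above background, open points are not, and grey bars mark the floor of each array. The KO GF point is the highest in 9 of 10 panels, and Insl5 stays between 0.28 and 0.95.

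Chga and Chgb read higher on the KO-labelled array in both housings. Chga, which encodes chromogranin A, a granule core protein and general marker of enteroendocrine cells, had levels of 0.87 on the KO GF array, -2.35 on the WT GF array, -1.55 on the KO SPF array and -5.33 on the WT SPF array, the last not above background. The signals behind them were 377.5 ± 37.9 on KO GF, 37.2 ± 4.58 on WT GF, 53.7 ± 5.91 on KO SPF and 4.10 ± 2.15 on WT SPF (scanner error, 1 spot). Both KO-labelled arrays lay above both WT arrays. The difference was 3.22 under GF housing (9.35-fold) and at least 6.03-fold under SPF housing.

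Chgb, which encodes chromogranin B, was measured by 10 spots on each array. Its level was 1.29 ± 0.07 on the KO GF array, -0.98 ± 0.12 on the WT GF array, -0.17 ± 0.11 on the KO SPF array and -6.26 ± 0.14 on the WT SPF array (SD over 10, 10, 10 and 8 spots used). The spots did not overlap between any 2 arrays, and on the WT SPF array none of the 8 used spots was well above background. Chgb was 4.83-fold higher on the KO GF than on the WT GF array and at least 15.7-fold higher on the KO SPF than on the WT SPF array. The order of the 4 arrays was the same for Chga and Chgb, each step being larger than 2 combined errors within arrays.

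Scg3, which encodes secretogranin III, a granule protein that binds chromogranin A, had another order. Its levels were -0.94 on the KO GF array, -1.79 on the WT GF array, -3.92 on the KO SPF array and -4.22 on the WT SPF array, of which both SPF values were not above background. The KO GF array was 1.79-fold above the WT GF array, and no fold is given under SPF housing.

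**Figure D2:**
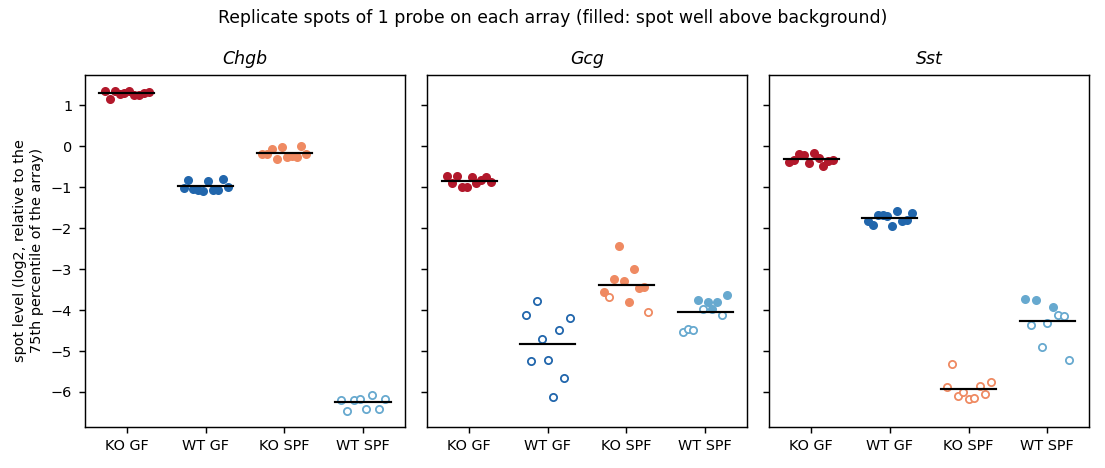
Spot levels of Chgb, Gcg and Sst (y axis, log2 relative to the 75th percentile of the array) on the KO GF, WT GF, KO SPF and WT SPF arrays (x axis), where each point is 1 spot of 1 probe, filled if well above background, and the bar is the mean. The Chgb spots form 4 separate bands, while the Gcg spots of the 2 SPF arrays overlap.

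The hormones of L cells were high on the KO GF array, with Insl5 the least different. Pyy, which encodes peptide YY, a hormone that slows gut transit and lowers food intake, had levels of 1.40 on the KO GF array, -2.79 on the WT GF array, -1.49 on the KO SPF array and -1.91 on the WT SPF array. The signals behind them were 543.7 ± 54.5 on KO GF, 27.5 ± 3.86 on WT GF, 55.9 ± 6.27 on KO SPF and 44.1 ± 5.05 on WT SPF (scanner error, 1 spot). The KO GF array stood alone, 18.2-fold above the WT GF array. The 2 SPF arrays differed by 0.41, less than 2 combined errors within arrays (combined error 0.23).

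Gcg, which encodes proglucagon, the precursor of glucagon-like peptides 1 and 2, was measured by 10 spots. Its level was -0.85 ± 0.10 on the KO GF array, -4.84 ± 0.77 on the WT GF array, -3.40 ± 0.45 on the KO SPF array and -4.06 ± 0.33 on the WT SPF array (SD over 10, 9, 10 and 10 spots used). The flag was set on 10 of 10 spots on the KO GF array, 0 of 9 on the WT GF array, 8 of 10 on the KO SPF array and 5 of 10 on the WT SPF array. Gcg was at least 8.66-fold higher on the KO GF than on the WT GF array. The spots of the KO SPF and WT SPF arrays overlapped, and their difference of 0.66 was within 2 combined errors (combined error 0.56).

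Insl5, which encodes an insulin-like peptide of colonic L cells, was above background throughout and nearly level. It read 0.95 on the KO GF array, 0.28 on the WT GF array, 0.54 on the KO SPF array and 0.71 on the WT SPF array. No 2 neighbours in the order KO GF, WT SPF, KO SPF, WT GF differed by more than 2 combined errors, while the GF pair, the ends of that order, differed by 0.67 (1.59-fold). The genes of L cells thus spanned 4.19 (Pyy), 3.99 (Gcg, to a value not above background) and 0.67 (Insl5) between the 2 GF arrays.

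Sst and Cck followed neither pattern. Sst, which encodes somatostatin, the inhibitory hormone of D cells, had levels of -0.32 ± 0.10 on the KO GF array, -1.76 ± 0.12 on the WT GF array, -5.92 ± 0.27 on the KO SPF array and -4.27 ± 0.50 on the WT SPF array (SD over 10, 10, 9 and 9 spots used). All 10 spots were well above background on each GF array, 0 of 9 on the KO SPF array and 3 of 9 on the WT SPF array. Under GF housing KO was 2.72-fold above WT, and the spots did not overlap.

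Cck, which encodes cholecystokinin, a hormone made mainly in the small intestine, was the 1 gene that was highest on an SPF array. Its levels were -3.30 on the KO GF array, -4.00 on the WT GF array (not above background), -1.52 on the KO SPF array and -2.31 on the WT SPF array. Under GF housing the difference between KO and WT, 0.70, was within 2 combined errors (combined error 0.42) and was 0.10 with normexp. Under SPF housing KO was 1.72-fold above WT.

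Tph1 and Neurod1 were not above background on the SPF arrays, except for 1 of the Neurod1 probes. Tph1, which encodes the enzyme that starts serotonin synthesis in enterochromaffin cells, had levels of -2.24 on the KO GF array, -4.08 on the WT GF array, -3.63 on the KO SPF array and -5.03 on the WT SPF array, and was above background on the KO GF array alone. It was at least 3.30-fold higher there than on the WT GF array, but with normexp background correction of the median signals, which adds an offset to every signal and so shrinks differences of dim genes, the difference was 0.40 on the log2 scale. Mast cells also make serotonin in mice with the same enzyme, and of 11 markers of mast cells on the array 3 were above background on the KO GF array, 4 on the WT GF array, 4 on the KO SPF array and 5 on the WT SPF array. Of all named genes, 72.95%, 71.97%, 66.86% and 69.89% were above background on these arrays, in that order.

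Neurod1, which encodes a factor needed for several enteroendocrine types, had 2 probes that disagreed. The one with the higher mean, which stands for the gene, had levels of -0.97 on the KO GF array, -2.28 on the WT GF array, -3.88 on the KO SPF array and -4.34 on the WT SPF array, the SPF values not above background. It was 2.48-fold higher on the KO GF than on the WT GF array, a difference of 0.67 with normexp. The other probe read -4.54 on KO GF, -4.37 on WT GF, -2.92 on KO SPF and -4.74 on WT SPF and was above background on the KO SPF array alone. The direction of Neurod1 between housings in KO-labelled cells therefore differs between its probes.

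Counted over the genes, 7 of 10 were at least 2-fold higher on the KO GF than on the WT GF array and 0 were lower, with a median difference of 1.64 (1.58 with dim genes at their bound). Of 15697 genes measured in that pair, 8.8% passed 2-fold upwards and 7.77% downwards, with a median of -0.20, so the median of the 10 genes relative to all genes was 1.84. Among the 5380 of them that lay, like most of the list, below the median of all named genes in mean level, 19.2% were 2-fold higher and 10.2% lower. The deposited table, which scales the arrays by other constants, turned the split of all genes in the GF pair to 2291 higher and 571 lower, against 1382 and 1220. Since the genes were chosen on this contrast, nothing is read from these counts.

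Under SPF housing 6 of the 10 genes were above background on at least 1 array of the pair. Chga and Chgb passed 2-fold upwards on the KO-labelled array and 0 genes downwards, where 5.61% of the 14877 genes measured were 2-fold higher and 6.61% lower. Of the dim genes, those below the median in mean level, 11.1% were higher and 17.1% lower. Over all genes the split was 835 higher and 983 lower, but 179 and 92 with normexp. With normexp the SPF differences of Chga and Chgb were 0.95 and 1.77, and the GF differences of Chga, Pyy and Gcg were 2.12, 2.61 and 1.27. The other measured genes were Pyy (0.41), Gcg (0.66), Insl5 (-0.17) and Cck (0.78). Scg3, Sst, Tph1 and Neurod1 were not above background on either SPF array. Chga and Chgb passed through the KO-labelled array alone, so their inclusion went with their difference.

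**Figure D3:**
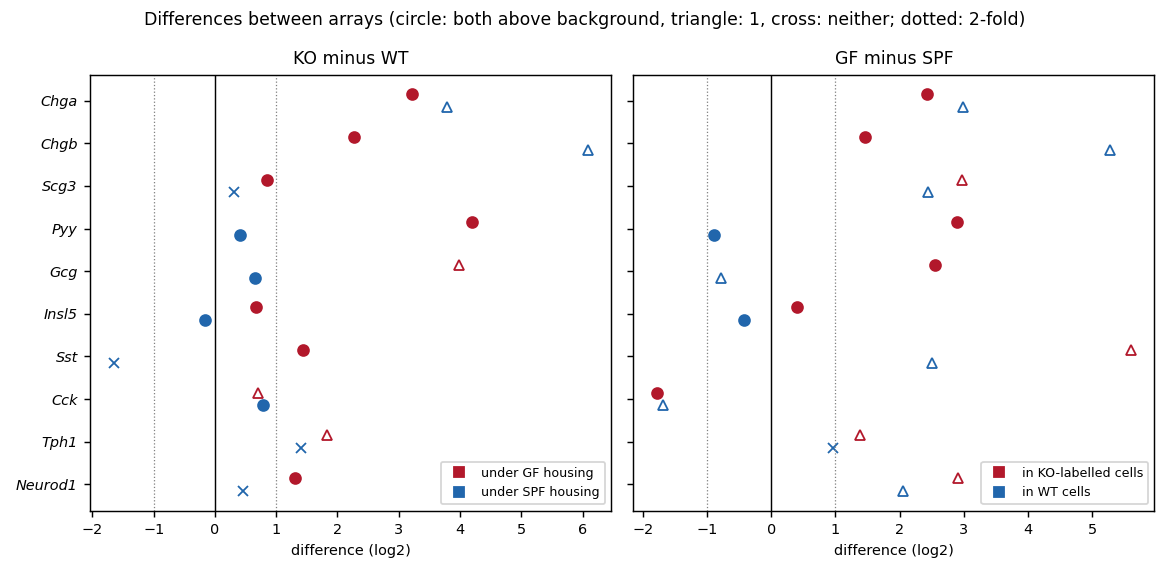
Measured difference of each gene (x axis, log2) for KO minus WT (left, under GF and SPF housing) and GF minus SPF (right, in KO-labelled and WT cells), with genes down the y axis. Circles mark genes above background on both arrays, triangles on 1 and crosses on neither, and dotted lines mark 2-fold; Pyy and Gcg lie right of 2-fold under GF housing and inside it under SPF housing, and Chga and Chgb lie right of it in both.

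Between housings, 8 of 10 genes were at least 2-fold higher on the KO GF than on the KO SPF array and 1, Cck, was lower. Of 15572 genes measured in that pair 21.6% were higher and 15.4% lower, and of the dim genes 39.6% were higher and 12.9% lower. The split of all genes was 3364 higher and 2400 lower, but 4613 and 1501 with the deposited table. The genes higher on the KO GF array were Sst (at least 11.6-fold), Scg3 (at least 7.55-fold), Pyy (7.42-fold), the Neurod1 probe that stands for the gene (at least 7.39-fold), Gcg (5.86-fold), Chga (5.37-fold), Chgb (2.75-fold) and Tph1 (at least 2.62-fold). The other Neurod1 probe was at least 2.04-fold lower. With normexp these differences were 1.61 for Sst, 1.02 for Scg3, 2.02 for Pyy, 0.95 for Neurod1, 0.94 for Gcg, 1.71 for Chga, 1.18 for Chgb and 0.15 for Tph1. Sst, Scg3, Neurod1 and Tph1 passed through the KO GF array alone, so their inclusion went with their direction. Among genes above background on both arrays, 4 of 6 were higher and 1 lower. In WT cells, 5 of 9 measured genes were at least 2-fold higher on the GF array (Chga, Chgb, Scg3, Sst and Neurod1) and 1, Cck, was lower, where 17.5% of 15656 genes were higher and 9.44% lower, and of the dim genes 29.2% and 14.7%. On the WT SPF array each of the 5 was below background, and the bounds were at least 8.95-fold for Chgb, 5.22-fold for Sst, 5.13-fold for Scg3, 3.64-fold for Neurod1 and 3.46-fold for Chga. With normexp they differed by 1.21, 0.63, 0.69, 0.36 and 0.54 in that order of genes. These 5 passed through the WT GF array alone and Cck through the WT SPF array alone, so their inclusion went with their direction. Among genes above background on both arrays, 0 of 2 were higher and 0 lower. Pyy differed in direction between genotypes, being 1.84-fold lower on the WT GF than on the WT SPF array. For Gcg the measured difference was 2.55 in KO-labelled cells and -0.78 in WT cells, where the WT GF level was not above background, the spots overlapped and the difference was within 2 combined errors (combined error 0.84). Cck was 3.43-fold lower on the KO GF than on the KO SPF array and at least 3.14-fold lower on the WT GF than on the WT SPF array. The KO minus WT difference under GF housing exceeded that under SPF housing by 3.77 for Pyy and by 0.84 for Insl5, the genes above background on all 4 arrays. For the other genes this value rests on at least 1 level below background and is not given. Pyy was chosen on its difference in the GF pair, which enters its value here, so nothing is read from that value. The comparisons share arrays, so they are not independent of each other.

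Markers of the epithelium, the tissue that holds enteroendocrine cells, differed between housings in the same direction as most of the list and were highest in sum on the KO GF array. All 30 listed markers were above background on each GF array, against 22 on the KO SPF and 20 on the WT SPF array. Of all named genes, 72.95% were above background on the KO GF array, 71.97% on WT GF, 66.86% on KO SPF and 69.89% on WT SPF. The summed signal of the 30 markers relative to the 75th percentile was 988.6 on the KO GF array, 626.0 on the WT GF array, 16.3 on the KO SPF array and 13.0 on the WT SPF array. Epcam, a surface protein of all gut epithelial cells, had levels of 4.82 on the KO GF array, 4.18 on the WT GF array, -0.42 on the KO SPF array and -0.77 on the WT SPF array. The median difference of the 30 markers was 5.23 between GF and SPF housing in KO-labelled cells and 5.40 in WT cells, where the enteroendocrine genes had 2.49 and 2.06. With dim genes at their bound the WT values were 4.95 for the markers and 1.79 for the enteroendocrine genes. Between KO and WT the median of the markers was 0.78 under GF housing and, over 24 measured markers, 0.41 under SPF housing. Relative to all genes these medians were 0.98 and 0.48. Under GF housing 10 of 30 were at least 2-fold higher and 0 lower (8.8% and 7.77% of all genes). Under SPF housing 5 of 24 were higher and 2 lower (5.61% and 6.61% of all genes). Of the SPF arrays, Krt8, Cdx1 and Cldn4 were above background on KO SPF alone and the lower Spdef on WT SPF alone. The mucin gene Muc2 of goblet cells differed by 1.93 between the GF arrays, the most of the 30.

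Dendritic cell markers were mostly lower on the KO GF than on the WT GF array. Of 16 measured markers 0 were at least 2-fold higher and 4 lower on the KO GF array, with a median difference of -0.75, or -0.55 relative to all genes, where 8.8% of all genes were higher and 7.77% lower. The 4 were Ccr7 (-1.91), Cd209a (-1.71), Batf3 (-1.16) and Itgax (-1.04). Between housings in KO-labelled cells, 11 of 17 were lower on the GF array and 0 higher, with a median of -1.20, where 15.4% of all genes were lower. In WT cells 3 were lower and 1 higher, with a median of -0.37. Cd74, the invariant chain of MHC class II, had levels of 7.44 on the KO GF array, 8.16 on the WT GF array, 8.56 on the KO SPF array and 8.54 on the WT SPF array. The part of these other cell types in the differences of the enteroendocrine genes was not tested. On the WT GF against the WT SPF array, where all 30 epithelial markers were at least 2-fold higher, Chgb, Sst, Scg3, Neurod1 and Chga were higher too, by the bounds given above, while Pyy differed by -0.88, Insl5 by -0.42 and Cck by -1.69.

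**Figure D4:**
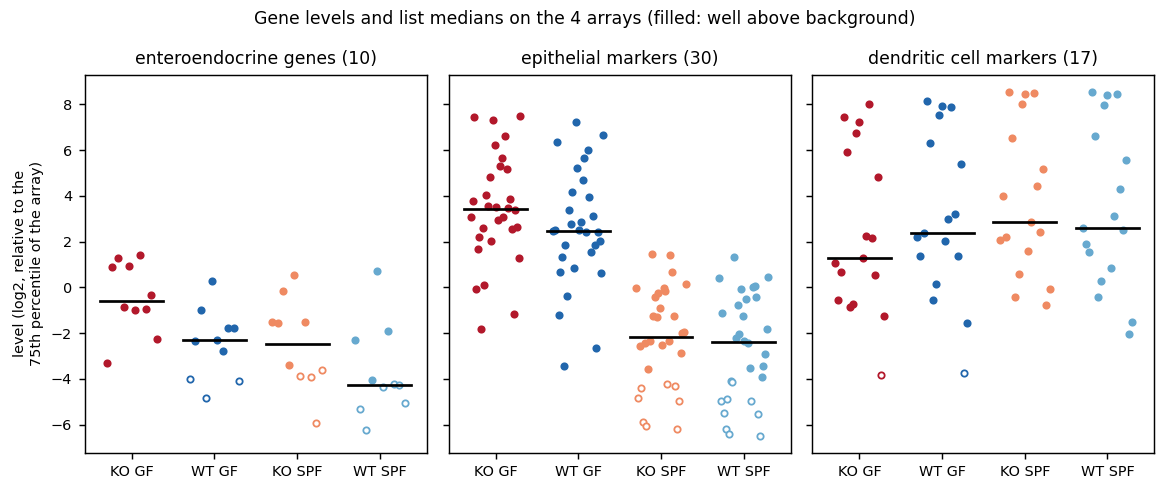
Levels (y axis, log2 relative to the 75th percentile of the array) of the 10 enteroendocrine genes, 30 epithelial markers and 17 dendritic cell markers on the KO GF, WT GF, KO SPF and WT SPF arrays (x axis), 1 point per gene, with the median of each list as a bar. The epithelial median is 3.42 and 2.48 on the KO GF and WT GF arrays and -2.17 and -2.40 on the KO SPF and WT SPF arrays. The median of the enteroendocrine genes is -0.58 and -2.32 on the KO GF and WT GF arrays and -2.48 and -4.25 on the KO SPF and WT SPF arrays.

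Other cell types that use chromogranins were looked at by the same lists. Of 20 markers of enteric neurons and glia, 12 were above background on the KO GF array, 8 on the WT GF array, 6 on the KO SPF array and 5 on the WT SPF array. Of all named genes, 72.95%, 71.97%, 66.86% and 69.89% were above background on these arrays, in that order. The median difference of the neuron and glia markers on the GF pair was 0.92 over 13 measured, but 0.39 with dim genes at their bound. Elavl4 had levels from 7.20 to 7.45 on the 4 arrays. The neuronal Ret, Hand2, Chat and Nos1 were not above background on any array. Among pancreatic islet markers, Iapp and Slc2a2 were not above background on any array, and Ins2, which encodes insulin, had levels of 0.49 on the KO GF array, -0.09 on the WT GF array, -0.90 on the KO SPF array and -1.22 on the WT SPF array.

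Other hormones and granins were read from a wider list of 25 genes on the array. Of 16 measured in the GF pair, 6 were at least 2-fold higher on the KO GF array and 1 was lower. In that pair 8.8% of all genes were higher and 7.77% lower, and of the dim genes 19.2% and 10.2%. The median difference of the 16 was 0.78. Ppy, which encodes pancreatic polypeptide of the same family as peptide YY, was at least 4.10-fold higher and was above background on no other array. The secretin gene Sct had levels of 0.37 on the KO GF array, -0.79 on the WT GF array, -3.84 on the KO SPF array (not above background) and -3.63 on the WT SPF array. The gastrin gene Gast differed by 1.12 between the GF arrays, while Tac1, which encodes substance P, Scg2, which encodes secretogranin II, and Nmu, which encodes neuromedin U, were at least 2.45-fold, 2.65-fold and 1.80-fold higher. Vgf, a granin-like precursor, was the 1 lower gene, at least 3.8-fold. In this pair Ppy, Tac1, Scg2 and Nmu were above background on the KO GF array alone, and Vgf on the WT GF array alone. Their inclusion therefore went with their direction. Nts, Gip, Npy and Vip were not above background on any array. Under SPF housing 2 of 15 measured were at least 2-fold higher, Tac1 (at least 1.86-fold) and Vgf (1.23), and Ucn3 was lower, at least 3.38-fold (5.61% and 6.61% of all genes). Of the dim genes 11.1% were higher and 17.1% lower. Tac1 was above background on the KO SPF array alone of that pair and Ucn3 on the WT SPF array alone. Their inclusion also went with their direction.

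Genes of the machinery that makes and stores the hormones were mostly within 2-fold between the GF arrays, as were most genes measured. Of all genes measured in that pair 8.8% were higher and 7.77% lower, and of the dim genes 19.2% and 10.2%. Of 11 measured genes of prohormone processing, 1 was at least 2-fold higher on the KO GF than on the WT GF array, Pcsk2 (1.16), which encodes a prohormone convertase, and 1 was lower, Ctsl (-1.12), a lysosomal protease. Pcsk1, the convertase that cuts proglucagon in L cells, was not above background on any array. Cpe, the carboxypeptidase that trims hormones in the granule, had levels of 2.33 on the KO GF array, 1.71 on the WT GF array, -1.81 on the KO SPF array and -0.04 on the WT SPF array. Of 19 measured genes of regulated secretion, 3 were higher, Ptprn (1.54), a granule membrane protein, the potassium channel gene Kcnj11 (1.02) and Cadps, a granule priming factor (at least 1.98-fold), and 1 was lower, Rab27a (-1.38). Cadps was above background on the KO GF array alone, so its inclusion went with its direction. The median difference of the 19 was 0.04.

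In the serotonin pathway, 6 of 12 measured genes beside Tph1 were at least 2-fold higher on the KO GF than on the WT GF array and 0 were lower, with a median of 1.0, where 8.8% and 7.77% of all genes and 19.2% and 10.2% of the dim genes passed. Ddc, which encodes the decarboxylase that completes serotonin synthesis, had levels of 3.45 on the KO GF array, 2.03 on the WT GF array, -1.19 on the KO SPF array and -2.56 on the WT SPF array. Its other probe differed by 1.69 under GF and by -0.94 under SPF housing. The vesicular transporter gene Slc18a1 of enterochromaffin cells was at least 2.17-fold higher, and Slc18a2, which other amine-storing cells use, differed by 1.54 (another probe 0.49). Slc18a1 was above background on the KO GF array alone, so its inclusion went with its direction. The serotonin uptake transporter gene Slc6a4, also expressed by absorptive epithelium, differed by 1.15, the oxidase gene Maoa by 1.29 and Aanat, whose product acetylates serotonin, by 1.09. Tph2, the neuronal form of the synthesis enzyme, was not above background on any array. Under SPF housing Ddc (1.37) and Gch1 (1.12), which encodes an enzyme that makes the cofactor of TPH1, were higher and Spr (-1.39) was lower among 9 measured, with a median of -0.11. There 5.61% of all genes were higher and 6.61% lower, and of the dim genes 11.1% and 17.1%.

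Of 19 measured transcription factors of the enteroendocrine lineage, 6 were at least 2-fold higher on the KO GF than on the WT GF array and 1 was lower. In that pair 8.8% of all genes were higher and 7.77% lower, and of the dim genes 19.2% and 10.2%. Insm1 and Lmx1a, factors of endocrine and enterochromaffin differentiation, were at least 2.30-fold and 2.80-fold higher and were above background on the KO GF array alone. The inclusion of both therefore went with their direction. The others higher are broader epithelial or secretory factors, namely Atoh1 (1.48), Cdx2 (1.62), Foxa2 (1.81, its other probe 1.54) and Hnf4a (1.14). Their median difference was 0.11. Under SPF housing 3 of 14 were higher on the KO-labelled array, Foxa1 (at least 3.92-fold), Foxa2 (1.51) and Hnf4a (at least 1.28-fold), and 0 were lower. Of that pair Foxa1 and Hnf4a were above background on the KO SPF array alone, so their inclusion went with their direction. Hnf4a lay at -3.79 there, near the floor of -3.86. There 5.61% of all genes were higher and 6.61% lower, and of the dim genes 11.1% and 17.1%.

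Sensors of the gut lumen and receptors for the hormones were mixed, with the same shares of all genes (8.8% and 7.77%) and of dim genes (19.2% and 10.2%) behind their counts. Of 17 measured sensors 2 were higher on the KO GF than on the WT GF array, the glucose transporter gene Slc5a1 (1.15) and the peptide transporter gene Slc15a1 (4.01-fold), and 3 were lower, Gprc6a (at least 5.35-fold), Cckbr (at least 2.56-fold) and Olfr558 (at least 1.85-fold). Of this pair Gprc6a, Cckbr and Olfr558 were above background on the WT GF array alone, so their inclusion went with their direction. Of 17 measured receptor genes 4 passed 2-fold upwards and 2 downwards. The higher ones were Glp1r (1.28, its other probe 0.96), the receptor for glucagon-like peptide 1, Gcgr (1.07), Sstr1 (1.56, its other probe above background on the KO GF array alone) and Htr2b (at least 2.58-fold), a serotonin receptor. The lower ones were Cckbr, also in the sensor list, and Htr7, another serotonin receptor (-1.13). Htr2b was above background on the KO GF array alone of this pair, so its inclusion too went with its direction. Under SPF housing 3 of 14 measured receptor genes were higher, Htr2b (at least 3.63-fold), Htr2a (at least 2.70-fold) and Htr2c (1.04), and Sstr3 was lower (at least 2.85-fold). Of the SPF arrays, Htr2b and Htr2a were above background on KO SPF alone and Sstr3 on WT SPF alone. Their inclusion went with their direction. There 5.61% of all genes were higher and 6.61% lower, and of the dim genes 11.1% and 17.1%.

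**Figure D5:**
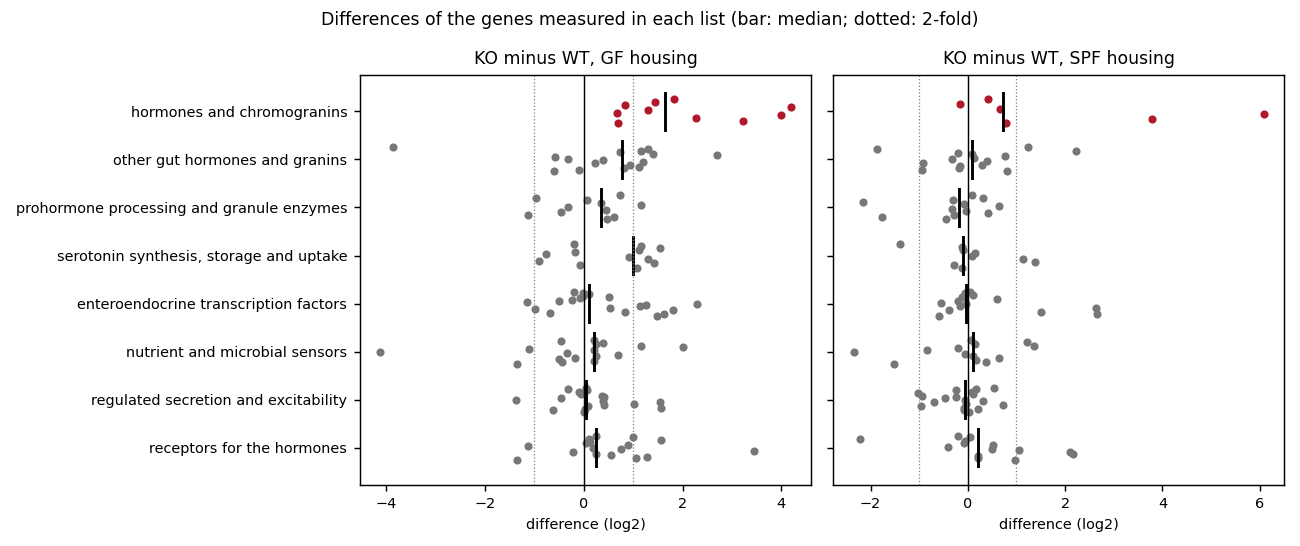
Differences between KO and WT (x axis, log2) under GF (left) and SPF housing (right) for the measured genes of 8 lists (y axis), 1 point per gene, bars at the median, dotted lines at 2-fold. The hormones and chromogranins, chosen on the GF contrast, have a median of 1.64 there, and the other 7 lists have medians between 0.04 and 1.0.

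The genes outside the list whose pattern over the 4 arrays was most like the mean of Pyy and Chga were found by the root mean square difference between centred levels, over 15045 genes above background on the KO GF array. The nearest were Klhl29 (0.16), Spred3 (0.24), Il23r (0.36), Lpo (0.47) and Olfr401 (0.49). Lpo, which encodes lactoperoxidase, was above background on all 4 arrays, at 3.40 on KO GF, -1.55 on WT GF, -0.19 on KO SPF and -1.88 on WT SPF. Klhl29, Spred3 and Olfr401 were above background on the KO GF array alone, and Il23r on both KO-labelled arrays, so their distances and order rest in part on levels below background, as does the Chga level on the WT SPF array. Within the list Gcg was the nearest (0.71), followed by Tph1 (0.78), and Cck the farthest (2.14). These distances also rest in part on levels below background, for Tph1 on all arrays but KO GF and for Gcg and Cck on WT GF. The 2 reference genes, chosen as higher on the KO GF array, differed themselves. Their KO minus WT difference under SPF housing was 0.41 for Pyy and 3.78 for Chga, the latter to a level not above background.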

How the data were processed

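The intensity values were deposited by the authors as 1 scanner file per array, made with Agilent Feature Extraction 10.10.1.1 from Cy3-labelled cDNA, per the file headers and the labels, and are background-subtracted but not scaled between arrays. Per the labels' protocols, RNA was amplified with a whole-transcriptome kit, which may alter relative levels of dim genes. The authors' deposited table of the whole series holds the same intensity times a constant per array (7.96, 7.08, 8.24 and 8.30 for KO GF, WT GF, KO SPF and WT SPF), found by comparing both. Its scale is linear and its genes are not centred, while the rule behind the constants stays unknown; its column medians were 331.4, 235.7, 216.3 and 237.2.

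Control spots (3671 per array) and outlier-flagged spots were left out, log2 processed signals of the same probe were averaged, and the 75th percentile over the 55597 probes was subtracted. Of 55681 probes, 27223 had 1 gene name, 28439 had none and 19 had 2, through RefSeq accessions of GRCm38.p6. The design build in the file headers is another one, mm9, and no probe coordinate was used. The probe with the highest mean stood for a gene. The number of arrays limits the precision, and no test between groups was made. The genes and lists were chosen with earlier results of these data known. Genes named are the 10 with all their probes, listed genes above background on the KO GF array and at least 2-fold different between the GF arrays, and the 5 most alike; other listed genes were named after their values were seen, and some listed genes are counted but not reported by name here. The calls were run on simulated data as a check of the code only, which gives no error rate for 1 array per group. Python 3.11.15, R 4.3.3, limma 3.58.1 and matplotlib 3.10.9 were used. Alternatives were quantile and cyclic loess scaling, the deposited table, normexp (offset 50) on median signals, other filters, probe rules, flags and a 4-fold threshold.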

Additional observations from a re-analysis of the deposited data

Results flagged for a closer look

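For 3 genes the measured difference in the same contrast had opposite signs in 2 groups, with 1 array on either side, and none of these differences was tested. Pyy differed between GF and SPF housing by 2.89 in KO-labelled cells and by -0.88 in WT cells, but it was chosen on the 2 GF levels that enter these differences. Gcg differed between the same housings by 2.55 in KO-labelled cells and by -0.78 in WT cells, but the WT GF level was not above background and the WT difference was within 2 combined errors, so its sign is not settled. Insl5 differed by 0.41 in KO-labelled cells and by -0.42 in WT cells between housings, and by 0.67 under GF and -0.17 under SPF housing between KO and WT.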

How the results depend on the processing

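Of 240 gene differences recomputed under 6 of the 9 alternatives, 210 moved by less than 1.5-fold, 30 moved by more and 0 of those at least 2-fold changed sign. Over these and the values as reported, Tph1 between housings in WT cells ranged from -0.07 to 0.96, and the other differences kept 1 sign. Of the 30, 26 came from normexp, which changed the input from processed to median signals as well as the correction, and 4 from the median over probes, all of them Neurod1. With normexp the counts of genes at least 2-fold higher were 4 for KO against WT under GF housing, 1 under SPF housing, 5 for GF against SPF in KO-labelled cells and 1 in WT cells, the counts of lower genes between housings were 0 and 0, and the medians were 0.77 for the GF pair, 0.99 for housing in KO-labelled cells and 0.36 in WT cells. Over all genes normexp left 287 higher and 353 lower in the GF pair, 179 and 92 in the SPF pair, 1211 and 1256 for housing in KO-labelled cells and 999 and 442 in WT cells. With only genes above background on both arrays, the higher counts were 0 of 4 for the SPF pair, 4 of 6 for housing in KO-labelled cells and 0 of 2 in WT cells, where 0 were lower and the median, over Pyy and Insl5, turned to -0.65. With no filter 1 gene, Sst, was lower in the SPF pair. Quantile scaling gave 2 lower genes between housings in WT cells, and the median over probes gave a median of 1.22 there. At 4-fold, 4 genes were higher in the GF pair and 0 lower between housings in either genotype. The deposited table moved the median of all genes in the GF pair to 0.08. Dim signal limits Tph1, Scg3, Neurod1 and Sst under SPF housing. No paired analysis was possible because each group has 1 array.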
